A study of Mus musculus with 18 samples.

Results

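A set of 10 secreted growth and trophic factors was followed in astrocytes of the mouse primary motor cortex: Fgf2, Vegfa, Bdnf, Tgfb1, Tgfb2, Gdnf, Ptn, Mdk, Nrg1 and Igfbp2. They were chosen by name and not by a threshold on any value, though with earlier results of these data known. All 10 are among the 23924 genes read from the deposited table. The series asks how learning a lever task affects these cells. Wild-type C57BL/6 mice under water restriction learned a cued lever push rewarded with water, and 6 libraries each came from untrained (naive), novice and expert mice. Novice mice had trained for 3 days and expert mice were fully trained. By their labels, 4 libraries of each group were male and 2 female. Ages ran from 12 to 21 weeks (naive), 11 to 13 weeks (novice) and 13 to 15 weeks (expert). The sources used here do not give how the astrocytes were isolated or whether naive mice were water restricted. Values are in FPKM, fragment counts scaled to transcript length and to the size of the library, so that levels of different genes can be set side by side.

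These factors act on neighbouring cells through surface receptors. Pleiotrophin (Ptn) and midkine (Mdk) are related heparin-binding cytokines that bind the receptor phosphatase Ptprz1. Vegfa drives the growth and permeability of blood vessels through Flt1 and Kdr on endothelial cells. Fgf2 signals through the FGF receptors, and the TGF-beta ligands Tgfb1 and Tgfb2 through Tgfbr1 and Tgfbr2 after release from a latent complex. Bdnf acts through the receptor kinase Ntrk2, Gdnf through Gfra1 and Ret, and Nrg1 through the ErbB receptors. Igfbp2 binds insulin-like growth factors outside the cell. In the brain these proteins are known for roles in synapse formation, neuronal survival and the upkeep of vessels, and neurons, microglia and vessel cells make several of them as well.

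Libraries differed in ways that touch these values. The mean over 1571 genes from families with little or no known expression in brain (olfactory, vomeronasal and taste receptors, keratin-associated proteins and beta-defensins) lay at 0.303 to 3.33 FPKM in 10 libraries and at 4.67 to 6.73 FPKM in the other 8. The 8 libraries of higher silent-gene level comprised 2 naive, 4 novice and 2 expert libraries. The lowest was expert 3, and the next lowest library stood at 1.52 FPKM. The single transcript Bc1 made up 6.01% to 19.2% of the summed FPKM in the libraries of higher silent-gene level. In those of lower level Bc1 made up 18.4% to 59.6%, and its part in the values of other genes was not tested. The 12 astrocyte markers, none of them at 0 in any library, were abundant throughout, with a mean log2(FPKM + 1) between 5.98 and 7.82 in naive libraries, 6.06 and 7.20 in novice libraries and 6.44 and 8.22 in expert libraries. Markers of other cells were present too, among them Snap25 of neurons at a mean of 114 FPKM over the 18 libraries and Cldn5 of endothelial cells at 40.3 FPKM. Sex-linked transcripts went against the labelled sex in novice 1 and novice 3, with Xist at 1.60 FPKM in novice 1 (labelled female) and 17.97 FPKM in novice 3 (labelled male). From steps among low values, 1 fragment on 1 kb of transcript was worth 0.609 to 1.90 FPKM in 17 libraries and gave no readable step in expert 3. The table does not hold read totals. In such bulk samples, fewer cells of a type and less RNA per cell cannot be told apart.

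The 4 most abundant factors stood well above the level of silent genes. Ptn was the most abundant, at a mean of 179 FPKM over the 18 libraries, rank 449 of the 23924 genes. Vegfa averaged 50.8 FPKM, Igfbp2 36.3 FPKM and Mdk 23.4 FPKM. Each of these 4 exceeded the 90th percentile of the silent genes in 18 of 18 libraries. Tgfb2, at 11.6 FPKM, did so in 17 and Fgf2, at 7.06 FPKM, in 13.

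The remaining 4 factors were close to the level of silent genes. Bdnf averaged 4.12 FPKM, Tgfb1 3.71 FPKM, Nrg1 3.30 FPKM and Gdnf 1.64 FPKM over the 18 libraries. Bdnf exceeded the 90th percentile of silent genes in 8 of 18 libraries, Nrg1 in 7, Tgfb1 in 4 and Gdnf in 0. Relative to the mean of the silent genes in the same library, the median ratio was 1.02 for Bdnf, 1.06 for Tgfb1, 1.02 for Nrg1 and 0.439 for Gdnf. At these levels a difference between groups in these 4 transcripts cannot be told apart from one in the silent-gene level.

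**Figure D1:**
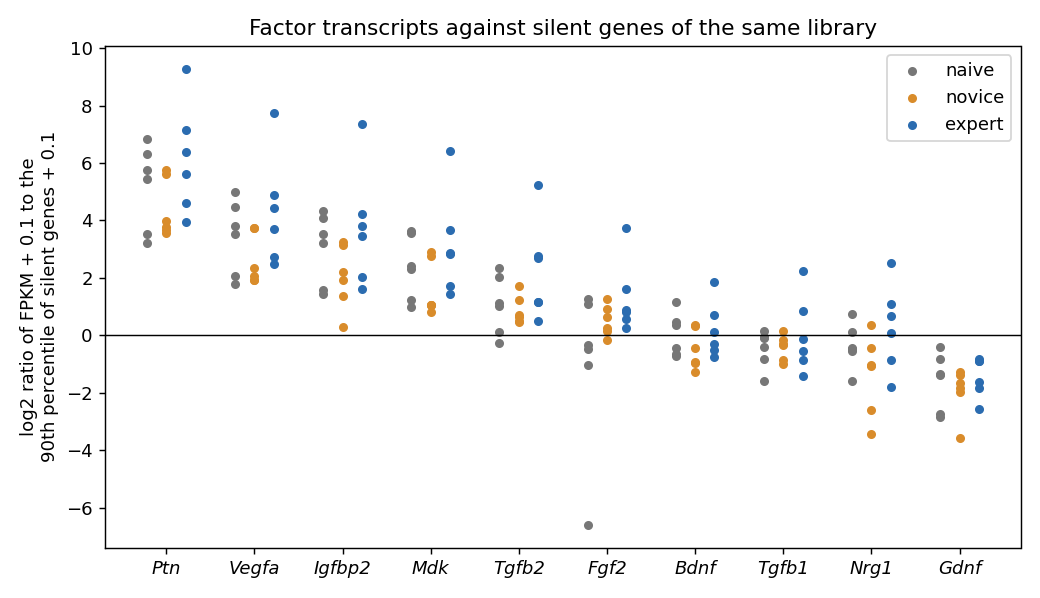
Each point is 1 library, and the vertical axis is the log2 ratio of a factor's FPKM (plus 0.1) to the 90th percentile of the silent genes (plus 0.1) in the same library, with naive, novice and expert from left to right within each factor. Ptn, Vegfa, Igfbp2 and Mdk lie above the line at 0 in 18 of 18 libraries, and Gdnf lies below it in all of them.

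All 10 factors passed the filter of 1 FPKM in at least 6 libraries and were tested, and none passed after adjustment. In each of the 3 pairwise comparisons limma called 0 of 21745 genes and 0 of the 10 factors (adjusted p threshold 0.05, background 0%). At an unadjusted p under 0.05 the novice against naive comparison held 1 of 10 factors (Fgf2, higher in novice), with 4.6% of all genes, 2.72% higher and 1.88% lower in novice. Expert against naive held 2 of 10 (Fgf2 and Tgfb2, both higher in expert), with 2.86% of all genes, 1.43% in each direction. Expert against novice held 4 of 10 (Vegfa, Ptn, Mdk and Igfbp2, all higher in expert), with 10.9% of all genes, 4.88% higher and 5.97% lower in expert. All 4 had a mean of at least 10 FPKM. Of the 4995 tested genes with such a mean, 605 were higher and 132 lower in expert at that threshold. A moderated F test for any difference among the 3 groups called 0 genes, and 2 factors (Fgf2 and Vegfa) and 5.53% of all genes were under 0.05 before adjustment. Groups that did not overlap at all were found for 0 of 10 factors in each comparison. Of all genes this held for 0.129% between novice and naive, 0.0782% between expert and naive and 0.432% between expert and novice. A log2 fold change above 0, which is meant below wherever a gene of a list is said to have a higher mean, was found for 4 of 10 factors and 57% of genes between novice and naive, for 7 of 10 and 43.9% between expert and naive, and for 6 of 10 and 40.4% between expert and novice. The median log2 fold change of the 10 factors was -0.29 in the novice to naive comparison, where all tested genes had 0.07 and the 4995 genes with a mean of at least 10 FPKM had -0.15. Between expert and naive it was 0.13, beside -0.05 for all genes and 0.02 for the abundant ones. Between expert and novice it was 0.41, beside -0.14 and 0.21. The comparisons share groups, so that the 3 medians are not independent.

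**Figure D2:**
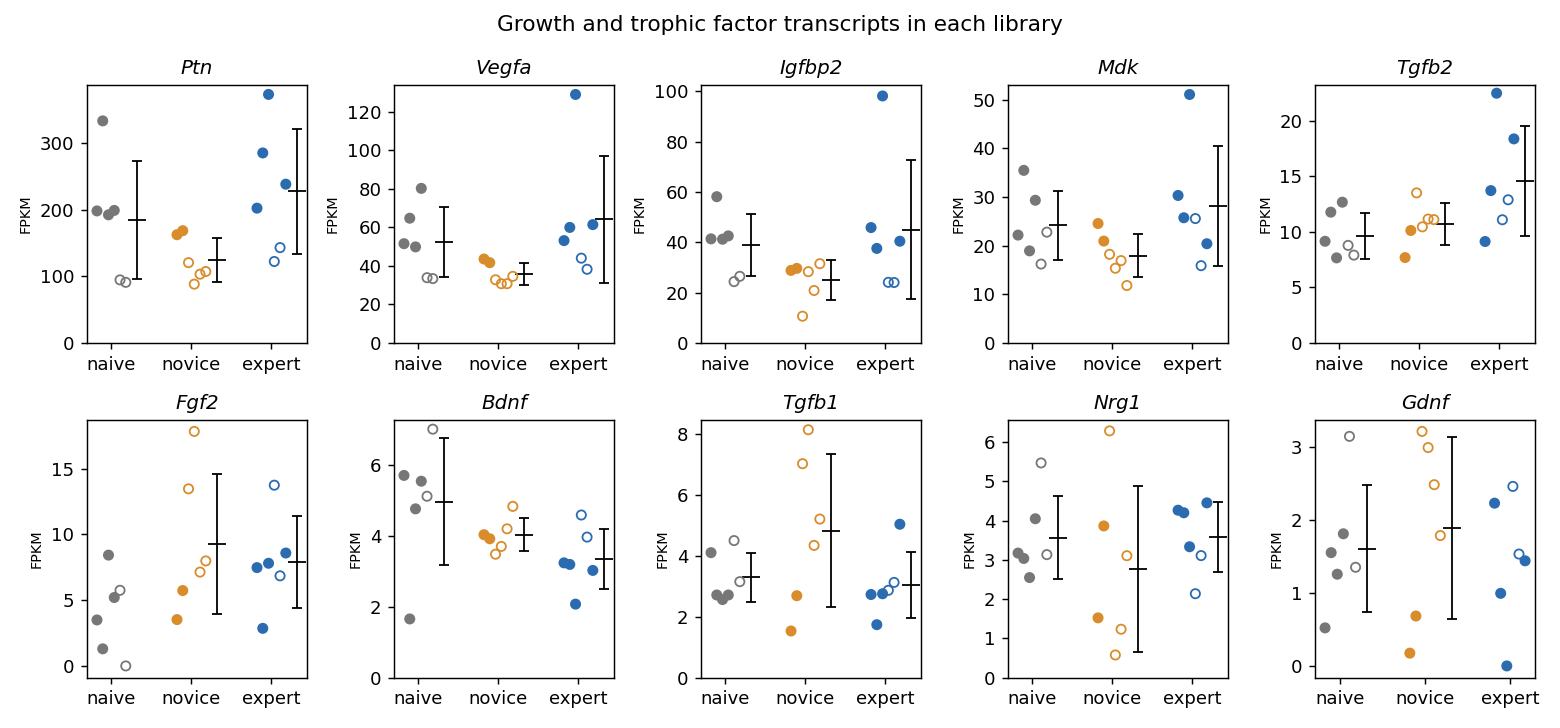
FPKM of each factor in the 6 libraries of naive, novice and expert, with filled points for libraries of lower silent-gene level and open points for those of higher silent-gene level; the cross bars show mean ± SD and are left out where a library is listed at 0. The open points of Ptn and Vegfa lie at the bottom of their groups, and expert 3 is the highest point of Ptn, Vegfa, Igfbp2, Mdk and Tgfb2.

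The abundant cytokine Ptn had its lowest group mean in novice, while naive 5 and naive 6 were lower than 5 of the 6 novice libraries. It ranged from 90.8 to 333 FPKM in naive (median 195), from 88.1 to 168 FPKM in novice (median 114) and from 122 to 373 FPKM in expert (median 220.1). Expert libraries averaged 227 ± 93.2 FPKM and novice libraries 125 ± 33.0 FPKM (SD, n = 6 each), which is a log2 fold change of 0.80 (SE 0.35, 95% interval 0.07 to 1.52), and the groups overlapped. Novice against naive, with naive at 185 ± 88.7 FPKM, gave -0.46 (interval -1.18 to 0.27), and expert against naive 0.34 (interval -0.39 to 1.06). By limma with Benjamini-Hochberg adjustment over all genes, the adjusted p was 0.89 for novice to naive, 1.0 for expert to naive and 0.45 for expert to novice. By silent-gene level the libraries did not overlap in Ptn, which was 162 to 373 FPKM in the 10 libraries of lower and 88.1 to 143 FPKM in the 8 of higher silent-gene level. Within the lower libraries the difference of log2 means was 0.69 for expert against novice (4 against 2 libraries), and within the higher ones 0.34 (2 against 4). Novice against naive did not keep its sign, at -0.44 within the lower (2 against 4 libraries) and 0.17 within the higher ones (4 against 2). Without expert 3, expert against novice was 0.63 (unadjusted p = 0.082). The other comparisons of Ptn moved more when 1 library was left out. Novice against naive was -0.26 without naive 2, and expert against naive was 0.54 without naive 2, 0.18 without naive 5 or without expert 3, and 0.16 without naive 6.

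Vegfa, the angiogenic factor, had the same order of group means. It ranged from 33.4 to 80.3 FPKM in naive (median 50.7), from 30.7 to 43.6 FPKM in novice (median 33.7) and from 38.2 to 129 FPKM in expert (median 56.6). The value of 129 FPKM belonged to expert 3, and the other 5 expert libraries did not exceed 61.4 FPKM. Expert averaged 64.3 ± 33.0 FPKM and novice 35.7 ± 5.595 FPKM (SD, n = 6 each), which is a log2 fold change of 0.73 (SE 0.28, interval 0.15 to 1.31, limma adjusted p = 0.45). Without expert 3 this was 0.50 (unadjusted p = 0.048). Against naive, at 52.3 ± 18.1 FPKM, novice stood at -0.48 (interval -1.06 to 0.10) and expert at 0.24 (interval -0.33 to 0.82). The value for expert against naive was 0.02 without expert 3, 0.13 without naive 6, 0.14 without naive 5, 0.37 without expert 5 and 0.38 without naive 4. Vegfa was 41.7 to 129 FPKM in the libraries of lower and 30.7 to 44.0 FPKM in those of higher silent-gene level, and expert against novice was 0.72 within the lower and 0.34 within the higher libraries.

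Igfbp2 and Mdk resembled them. Igfbp2 ranged from 24.4 to 58.1 FPKM in naive (median 41.3), from 10.6 to 31.5 FPKM in novice (median 28.6) and from 24.0 to 98.2 FPKM in expert (median 39.0). Expert and novice, at 45.0 ± 27.5 and 24.9 ± 7.91 FPKM (SD, n = 6 each), differed by 0.73 on the log2 scale (interval 0.04 to 1.43), and without expert 3 by 0.48. Within the libraries of lower silent-gene level this difference was 0.79 and within those of higher level 0.18. Naive libraries averaged 39.0 ± 12.3 FPKM, and novice against naive was -0.64 (interval -1.34 to 0.05), or -0.43 without novice 3.

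Mdk ranged from 16.2 to 35.5 FPKM in naive (median 22.5), from 11.8 to 24.5 FPKM in novice (median 17.6) and from 15.9 to 51.1 FPKM in expert (median 25.6). Expert and novice, at 28.2 ± 12.3 and 17.96 ± 4.43 FPKM (SD, n = 6 each), differed by 0.56 (interval 0.02 to 1.10), by 0.38 without expert 3, and by 0.39 within the lower and 0.37 within the higher libraries. Both genes had an adjusted p of 0.45 for expert against novice and 0.89 for novice against naive by limma, and their groups overlapped. Without novice 3, whose sex transcripts went against its label, expert against novice was 0.71 for Vegfa, 0.79 for Ptn, 0.57 for Mdk and 0.52 for Igfbp2, and without novice 1 it was 0.79, 0.88, 0.65 and 0.79.

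The astrocyte markers had the same order of group means as these 4 factors. For novice against naive 12 of 12 astrocyte markers had a lower mean, beside 3289 of the 4995 genes of at least 10 FPKM. For expert against novice 12 of 12 had a higher one, beside 3312 of these 4995 genes. On the scale of mean log2(FPKM + 1), naive libraries averaged 7.03 ± 0.735, novice libraries 6.49 ± 0.477 and expert libraries 7.21 ± 0.651 (SD, n = 6 each). For expert against novice the exact permutation test gave p = 0.056 (two-sided, adjusted 0.38 over 30 marker and silent-gene comparisons). Set against this level in the same library, the log2 difference of Ptn averaged 0.36 ± 0.20 in naive, 0.45 ± 0.26 in novice and 0.53 ± 0.11 in expert (SD, n = 6 each), and that of Vegfa -1.37 ± 0.33, -1.30 ± 0.30 and -1.30 ± 0.22. With the astrocyte marker level as a covariate, a setting added after the values were seen, expert against novice was 0.17 for Ptn, 0.25 for Vegfa, 0.19 for Igfbp2 and 0.22 for Mdk. With the silent-gene level as a covariate the values were 0.29, 0.29, 0.25 and 0.25.

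**Figure D3:**
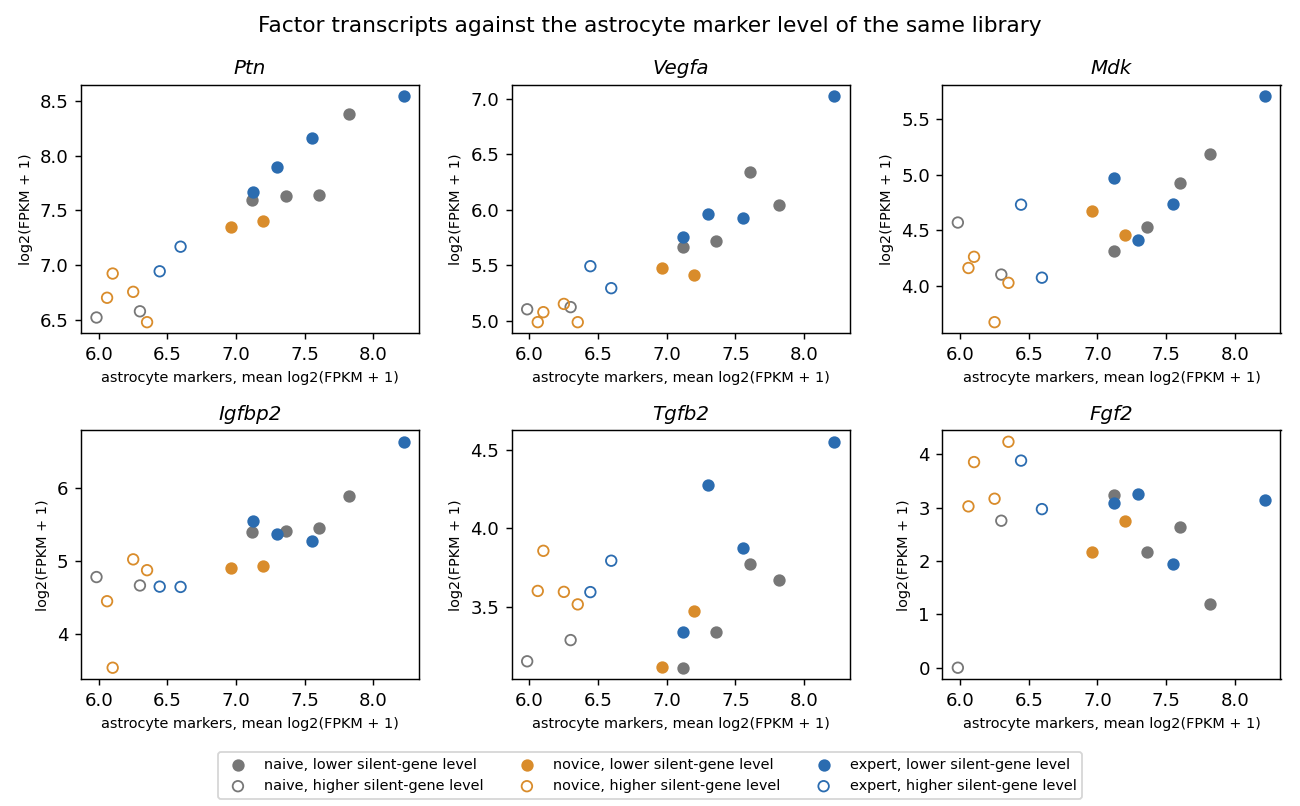
Each point is 1 library, with the mean log2(FPKM + 1) of the 12 astrocyte markers on the horizontal axis and log2(FPKM + 1) of a factor on the vertical axis; filled points are libraries of lower and open points libraries of higher silent-gene level. Ptn and Vegfa climb with the astrocyte marker level, whose extremes are 5.98 in naive 6 and 8.22 in expert 3, while Fgf2 does not.

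The nearest profiles among 4994 other genes with a mean of at least 10 FPKM were sought by the root mean square difference of log2(FPKM + 1) over the 18 libraries, each gene centred on its own mean. For Ptn these were the glycolytic enzyme Eno1 (0.14), the chondroitin sulfate proteoglycan Ncan (0.15) and its own receptor Ptprz1 (0.17), while the median gene stood at 0.55. For Vegfa they were the splicing factor Son (0.15), the FGF receptor Fgfr1 (0.16) and Gpld1 (0.16), with a median of 0.52. Mdk was nearest to the serine synthesis enzyme Phgdh (0.20), Gramd3 (0.22) and Agpat5 (0.22), and Igfbp2 to the fatty acid oxidation enzymes Echs1 (0.24) and Hadh (0.26) and to Abhd4 (0.25). Among the 10 factors themselves, the closest pairs were Vegfa with Ptn and Vegfa with Mdk, both at 0.28. The 18 points of each profile are libraries that differ in depth and silent-gene level.

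Promoter sequences of 3 of these factors with like profiles are shown to compare the start regions of genes whose transcripts varied together. Each is the 250 bases before the most upstream start in RefSeq, 5′ to 3′ on the strand of the gene, in build GRCm38.p6, while the deposited values were made on mm9. Capitals mark the motifs searched on both strands, the GC box GGGCGG, the TATA box TATAAA and the E-box CACGTG, which are different letters and do not overlap in these windows. RefSeq entries were at hand for 8 of the 10 factors, and not for Mdk and Nrg1.
Ptn (chr6:36810180-36810429, minus strand): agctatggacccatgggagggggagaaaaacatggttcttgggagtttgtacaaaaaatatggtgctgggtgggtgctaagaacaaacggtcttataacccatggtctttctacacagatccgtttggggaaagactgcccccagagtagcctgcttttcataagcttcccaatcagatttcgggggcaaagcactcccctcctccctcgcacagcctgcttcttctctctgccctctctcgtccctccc
Vegfa (chr17:46032378-46032627, minus strand): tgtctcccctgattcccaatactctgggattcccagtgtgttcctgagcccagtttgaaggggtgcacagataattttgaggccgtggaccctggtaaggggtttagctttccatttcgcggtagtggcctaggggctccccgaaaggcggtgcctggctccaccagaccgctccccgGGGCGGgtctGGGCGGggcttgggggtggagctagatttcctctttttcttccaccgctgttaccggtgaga
Igfbp2 (chr1:72824230-72824479, plus strand): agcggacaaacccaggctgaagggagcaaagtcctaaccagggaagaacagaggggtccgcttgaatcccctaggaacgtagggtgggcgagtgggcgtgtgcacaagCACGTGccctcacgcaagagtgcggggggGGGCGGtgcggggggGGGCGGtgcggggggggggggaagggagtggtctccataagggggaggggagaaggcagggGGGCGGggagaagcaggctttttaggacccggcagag
These 3 windows differ in their letters. Ptn holds none of the 3 motifs, with a GC content of 52.0%. Vegfa holds 2 GC boxes, which begin 72 and 62 bases before the start, and no TATA box. Igfbp2 holds 3 GC boxes and 1 E-box, with a GC content of 67.2%. Among 32851 promoter windows of that length, 32.7% hold a GC box, 12.4% a TATA box and 6.02% an E-box.

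Fgf2 stood higher in both trained groups than in naive, with wide spread. It ranged from 0 to 8.43 FPKM in naive (median 4.35), from 3.52 to 17.8 FPKM in novice (median 7.56) and from 2.86 to 13.7 FPKM in expert (median 7.64). Naive 6 was listed at 0, and the groups overlapped. The log2 fold change was 1.202 (SE 0.47, interval 0.22 to 2.19) for novice against naive and 1.05 (SE 0.47, interval 0.06 to 2.03) for expert against naive, with limma's adjusted p at 0.89 and 1.0. Expert against novice gave -0.15 (interval -1.14 to 0.83). Both comparisons use the same naive libraries and rest in part on naive 6. Without it they were 0.80 (unadjusted p = 0.060) and 0.65 (unadjusted p = 0.12), and with a pseudocount of 0.1 FPKM in place of 1 they were 1.86 and 1.69. With novice 1 left out, novice stood at 1.41 against naive, and with novice 3 left out at 1.07. Within the 10 libraries of lower silent-gene level novice against naive was 0.15 and expert against naive 0.55, and within the 8 of higher level, where naive 6 lies, 2.19 and 2.05. Nudt6 lies on the opposite strand and overlaps the end of Fgf2, and without a stated strand in the counting their reads may not be told apart. Nudt6 averaged 4.14 ± 2.24 FPKM in naive, 4.32 ± 1.83 FPKM in novice and 5.30 ± 2.56 FPKM in expert (SD, n = 6 each).

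Tgfb2, the more abundant of the 2 TGF-beta ligands among the factors, had its highest values in expert libraries. It ranged from 7.65 to 12.7 FPKM in naive (median 8.96), from 7.68 to 13.5 FPKM in novice (median 10.8) and from 9.12 to 22.5 FPKM in expert (median 13.3). Expert averaged 14.6 ± 4.94 FPKM and naive 9.65 ± 2.08 FPKM (SD, n = 6 each), which is a log2 fold change of 0.51 (SE 0.21, interval 0.07 to 0.96, limma adjusted p = 1.0). The 2 highest expert libraries, expert 3 at 22.5 FPKM and expert 6 at 18.3 FPKM, were also the 2 with the highest endothelial marker level, at 5.25 and 5.50 in mean log2(FPKM + 1), and the part of vessel cells in the Tgfb2 values was not tested. Over the 10 endothelial markers, none of them at 0 in any library, 10 of 10 had a higher mean in expert than in naive. So had 43.9% of all tested genes and 2650 of the 4995 genes of at least 10 FPKM. The list's level was 4.15 to 5.50 in expert and 4.04 to 4.51 in naive (exact permutation p = 0.035, two-sided, adjusted 0.38). Without expert 3 the log2 fold change of Tgfb2 was 0.39 (unadjusted p = 0.071). Unlike in Ptn, the libraries of lower and higher silent-gene level overlapped widely, at 7.65 to 22.5 and 7.90 to 13.5 FPKM, and expert against naive was 0.54 within the lower (4 against 4 libraries) and 0.47 within the higher ones (2 against 2). Its nearest profiles were Serinc3 (0.20), Lonrf3 (0.21) and Eogt (0.21).

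The start regions of Fgf2 and Tgfb2, the 2 factors with the smallest p against naive, are shown in the same way, with the same motifs in capitals.
Fgf2 (chr3:37348403-37348652, plus strand): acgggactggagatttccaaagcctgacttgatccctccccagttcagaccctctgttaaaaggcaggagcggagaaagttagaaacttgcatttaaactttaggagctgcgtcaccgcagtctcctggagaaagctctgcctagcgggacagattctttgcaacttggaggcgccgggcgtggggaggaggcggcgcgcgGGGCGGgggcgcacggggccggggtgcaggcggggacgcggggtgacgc
Tgfb2 (chr1:186705990-186706239, minus strand): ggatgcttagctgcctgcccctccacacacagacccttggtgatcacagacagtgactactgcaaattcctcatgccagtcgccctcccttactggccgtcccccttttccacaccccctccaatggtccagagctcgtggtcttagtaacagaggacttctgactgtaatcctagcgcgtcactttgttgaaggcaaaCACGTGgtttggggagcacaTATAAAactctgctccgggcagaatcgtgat
Fgf2 holds 1 GC box, 49 bases before the start, and no TATA box. Tgfb2 holds an E-box that begins 51 bases and a TATA box that begins 31 bases before the start, and no GC box. A match is a run of letters and no evidence of binding in these cells.

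**Figure D4:**
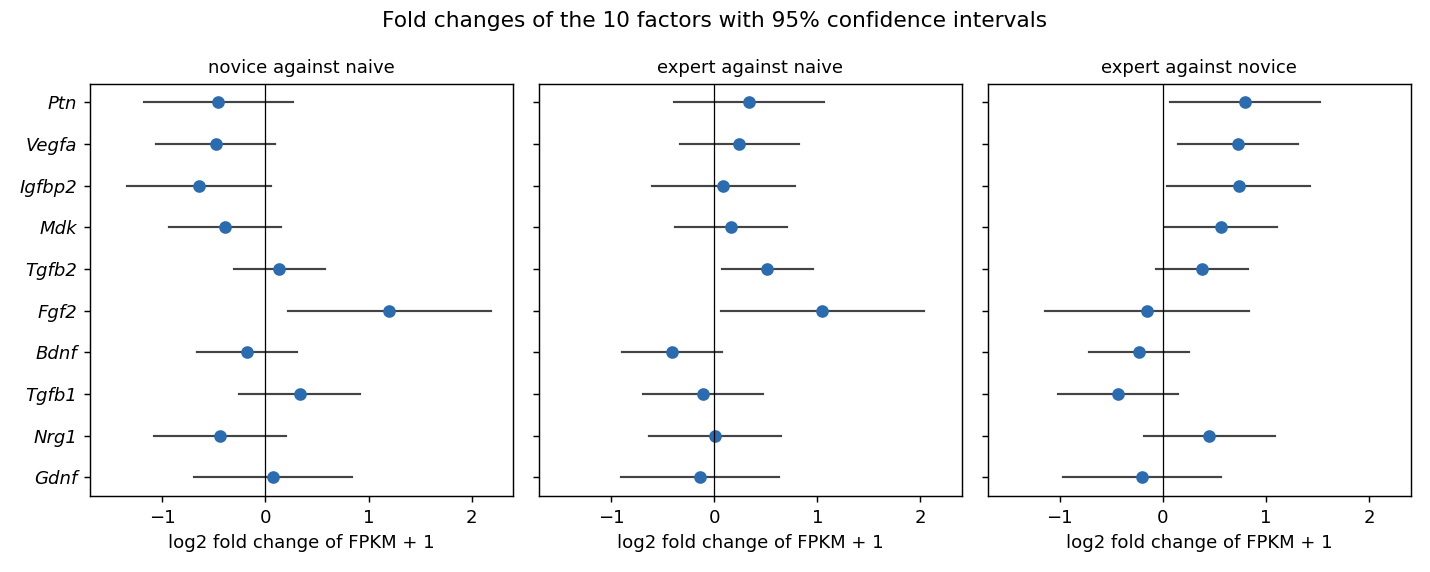
Log2 fold changes of the 10 factors (points) with 95% confidence intervals (lines) from limma, one panel per comparison, each named with the group on top of the fold change first. The intervals of Fgf2 exclude 0 against naive in both panels and that of Tgfb2 in expert against naive, and those of Ptn, Vegfa, Igfbp2 and Mdk lie above 0 in expert against novice; none passed after adjustment over all genes.

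The 4 factors near the silent-gene level did not pass in any comparison. Bdnf, the activity-dependent neurotrophin, ranged from 1.66 to 7.02 FPKM in naive (median 5.33), from 3.49 to 4.84 FPKM in novice (median 3.98) and from 2.08 to 4.59 FPKM in expert (median 3.22). The groups overlapped. Expert averaged 3.35 ± 0.86 FPKM and naive 4.97 ± 1.79 FPKM (SD, n = 6 each), which is a log2 fold change of -0.41 (SE 0.23, interval -0.89 to 0.08). With 1 library left out, it ran from -0.62 without naive 2, the lowest naive library, to -0.30 without naive 6, the highest. Without naive 2 the unadjusted p was 0.0029 (limma adjusted p = 0.93), and over all settings limma's unadjusted p reached up to 0.21. Of the 12 activity regulated genes known to rise with Bdnf in neurons, 6 had higher and 6 lower means in expert than in naive, and 0 passed. In the comparison of expert with novice, 4 of the 12 had higher and 8 lower means (median -0.19), and 40.4% of all tested genes had higher ones. There Fos stood at 38.6 ± 17.3 and 24.2 ± 12.1 FPKM (0.67, SE 0.34), Egr4 at 0.656 ± 0.416 and 2.29 ± 0.783 FPKM (-0.99, SE 0.30) and Nptx2 at 2.51 ± 0.944 and 3.34 ± 0.772 FPKM (-0.33, SE 0.23, with SD and n = 6 each). The means of Egr4 and Nptx2 lay under those of the silent genes, at 2.96 FPKM in expert and 4.67 FPKM in novice. Neuron markers had a lower mean in expert than in naive for 9 of 10 genes, none of them at 0 in any library. Of all tested genes 12198 of 21745 had a lower mean in expert, and of those of at least 10 FPKM 2345 of 4995. The list's mean log2(FPKM + 1) was 3.62 to 5.49 in expert and 3.46 to 5.37 in naive (exact permutation p = 0.686, two-sided, adjusted 0.858). The part of neurons in the Bdnf values was not tested. Within the libraries of lower silent-gene level, expert against naive was -0.40 for Bdnf, and within those of higher level -0.41.

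Tgfb1, which microglia and vessel cells also make, ranged from 2.56 to 4.49 FPKM in naive (median 2.93), from 1.53 to 8.13 FPKM in novice (median 4.77) and from 1.74 to 5.03 FPKM in expert (median 2.81). Expert against novice was -0.44 (interval -1.02 to 0.15), and did not keep its sign by silent-gene level, at 0.35 within the lower and -0.81 within the higher libraries. It was -0.65 without novice 1 (unadjusted p = 0.018) and -0.28 without novice 4. Novice against naive was 0.33, with 0.55 when novice 1 was left out (unadjusted p = 0.043), 0.21 when novice 3 was and 0.18 when novice 4 was. Microglia markers had a lower mean in expert than in novice for 7 of 10 genes, beside 12955 of 21745 tested genes. Among genes with a mean of 1 to 10 FPKM, 10986 of 16363 had a lower one. The list's level was 1.67 to 3.04 in expert and 2.44 to 2.99 in novice (exact permutation p = 0.141, two-sided, adjusted 0.379). Tmem119 was at 0 in 4 and C1qb in 1 of the 18 libraries. The part of microglia in the Tgfb1 values was not tested. Its 2 highest values, in novice 4 and novice 3, came from libraries of higher silent-gene level, where it reached 8.13 FPKM, against at most 5.03 FPKM in the others. Nrg1, the neuregulin that signals to ErbB receptors, ranged from 2.55 to 5.47 FPKM in naive (median 3.15), from 0.578 to 6.28 FPKM in novice (median 2.31) and from 2.14 to 4.45 FPKM in expert (median 3.77). Its log2 fold changes were -0.44 between novice and naive, 0.01 between expert and naive and 0.45 between expert and novice, and all had intervals that include 0. Novice 3 held the highest and novice 4 the lowest Nrg1 value. Leaving out novice 3 gave -0.67 between novice and naive (unadjusted p = 0.026) and 0.68 between expert and novice (unadjusted p = 0.025), and leaving out novice 4 gave -0.23 and 0.24.

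Gdnf, the ligand of Gfra1 and Ret, was at most 3.14 FPKM in naive, 3.21 FPKM in novice and 2.46 FPKM in expert, and expert 3 was listed at 0. Its medians were 1.45, 2.13 and 1.49 FPKM. Over the 8 libraries of higher silent-gene level its median was 2.47 FPKM, and over the 10 of lower level 1.12 FPKM.

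Receptors for the abundant factors were measured as well, and 0 genes of the receptor lists passed limma's test in any comparison. Ptprz1, the receptor of Ptn and Mdk, was the most abundant of its list, at 101 ± 47.0 FPKM in naive, 67.0 ± 24.4 FPKM in novice and 121 ± 57.9 FPKM in expert (SD, n = 6 each). The syndecan Sdc3 stood at 19.0 ± 3.32, 15.5 ± 1.91 and 23.9 ± 8.55 FPKM, and the endocytic receptor Lrp1 at 46.3 ± 17.2, 31.6 ± 9.12 and 52.4 ± 21.3 FPKM. Of the 9 genes of that list, 6 had a higher mean in expert than in novice, with a median log2 fold change of 0.52. Over the 4995 genes of at least 10 FPKM, 3312 had a higher mean in expert than in novice, and so had 12 of 12 astrocyte markers. Expert against novice was 0.79 (SE 0.36) for Ptprz1, 0.67 for Lrp1 and 0.52 for Sdc3. With the astrocyte marker level as a covariate these values were 0.08, 0.08 and 0.20, and with the silent-gene level as a covariate 0.22, 0.19 and 0.23.

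Vegfa's receptors are known from vessel cells. Flt1 averaged 53.0 ± 9.87 FPKM in naive, 51.1 ± 14.4 FPKM in novice and 87.1 ± 33.3 in expert (SD, n = 6 each), and Kdr 11.9 ± 2.29, 10.05 ± 3.98 and 18.8 ± 5.97 FPKM. Expert against novice was 0.73 (SE 0.26) for Flt1 and 0.88 (SE 0.27) for Kdr, at limma's adjusted p of 0.45. With the astrocyte marker level as a covariate they were 0.66 and 0.99. The neuropilin Nrp2 stood at 8.72 ± 3.44 FPKM in novice and 4.96 ± 1.04 FPKM in naive (0.64, SE 0.28). All 5 genes of this list had higher means in expert than in naive (median 0.57), beside 43.9% of all tested genes. The part of the endothelial marker level given above in this was not tested.

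The FGF receptor of highest level was Fgfr3, also an astrocyte marker, at 81.7 ± 38.3 FPKM in naive, 48.6 ± 13.9 FPKM in novice and 96.8 ± 54.2 FPKM in expert (SD, n = 6 each). Fgfr1 stood at 21.97 ± 7.18, 16.7 ± 3.34 and 27.8 ± 12.7 FPKM, and the decoy-like Fgfrl1 at 19.9 ± 6.53, 12.1 ± 4.04 and 21.6 ± 12.8 FPKM. Expert against novice was 0.87 for Fgfr3, 0.62 for Fgfr1 and 0.70 for Fgfrl1, and with the astrocyte marker level as a covariate 0.13 for each of the 3. That level includes Fgfr3 itself, so the smaller value of Fgfr3 arises in part by construction.

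Targets of FGF and ERK signalling had higher means in expert than in naive for 11 of 12 genes (median 0.18), beside 43.9% of all tested genes, 2650 of the 4995 genes of at least 10 FPKM and 12 of 12 astrocyte markers (median 0.19). In that comparison the transcription factors Etv5 and Etv4 stood at 0.10 and 0.60 and the phosphatase Dusp6 at 0.38. Against novice, expert stood at 0.54 (SE 0.23) for Etv5, 0.82 (SE 0.34) for Etv4 and 0.44 (SE 0.21) for Dusp6, and with the astrocyte marker level as a covariate at 0.20, 0.27 and 0.31. None of these genes passed (adjusted p = 0.45 for each in expert against novice by limma). Of the 12 targets, 8 had lower means in novice than in naive (median -0.22), beside 3289 of the 4995 genes of at least 10 FPKM and 12 of 12 astrocyte markers (median -0.59).

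For the TGF-beta axis, 9 of 13 receptor and activation genes had higher means in expert than in naive (median 0.22), beside 43.9% of all tested genes. Astrocyte markers were higher in expert for 12 of 12 genes and endothelial markers for 10 of 10 (median 0.59), and their part in these lists was not tested. Tgfbr2, the ligand-binding receptor, averaged 7.40 ± 0.91 FPKM in naive libraries, 7.41 ± 2.27 in novice libraries and 11.7 ± 5.26 in expert libraries (SD, n = 6 each). The latent TGF-beta binding protein Ltbp4 stood at 21.8 ± 8.40 FPKM in expert and 13.4 ± 3.96 FPKM in novice (0.65, SE 0.24). Acvrl1, a receptor of endothelial cells, stood at 0.55 and the integrin subunit Itgav, which takes part in activating latent TGF-beta, at 0.57 in the same comparison. With the astrocyte marker level as a covariate, expert against novice was 0.66 for Ltbp4, 0.40 for Tgfbr2, 0.58 for Acvrl1 and 0.03 for Itgav. Of 12 transducers and targets 11 had higher means in expert than in naive (median 0.18), among them the inhibitory Smad6 at 0.61 (SE 0.26), and Ctgf stood at 0.91 (SE 0.39) in novice against naive. The group means of Smad6 lay at or under those of the silent genes. The SMAD repressor Skil stood at 0.37 (SE 0.19) in expert against novice. None passed.

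Of the receptors of Bdnf, Gdnf, Nrg1 and the insulin-like growth factors, Ntrk2 was the most abundant. It averaged 118 ± 39.5 FPKM in naive, 96.3 ± 26.7 FPKM in novice and 130.4 ± 43.6 FPKM in expert (SD, n = 6 each), and Ncam1 65.9 ± 17.6, 49.9 ± 9.19 and 77.4 ± 26.6 FPKM. Egfr, the EGF receptor of the ErbB list, stood at 17.6 ± 2.35, 14.9 ± 2.52 and 19.3 ± 3.51 FPKM. Erbb4, a receptor of Nrg1, stood at 4.31 ± 1.43, 3.14 ± 1.17 and 3.24 ± 0.76 FPKM. Erbb3, which binds Nrg1, averaged 4.49 ± 2.72 FPKM in novice and 2.06 ± 1.24 FPKM in naive (0.78, SE 0.37), and was at 2.01 ± 0.976 FPKM in expert (-0.75 against novice). These means of Erbb3 lay under those of the silent genes (4.67 FPKM in novice, 3.70 in naive and 2.96 in expert), and Erbb4 was near them. The neurotrophin receptor Ngfr averaged 2.21 ± 1.24 FPKM in expert and 4.28 ± 1.73 FPKM in novice (-0.73, SE 0.32), near the silent-gene level. Igf1r averaged 23.7 ± 8.94 FPKM in expert and 15.9 ± 1.98 FPKM in naive (0.49, SE 0.22). The insulin receptor Insr stood at 0.30 (SE 0.16) and Igf2r at -0.01 (SE 0.17) in that comparison. Of the 3 insulin and IGF receptor genes 2 had a higher mean in expert than in naive. Of the 11 neurotrophin and GDNF receptor genes 3 did, beside 43.9% of all tested genes.

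Other ligands of the same families were counted beside the 10 factors, and 0 passed. Of 16 further FGF genes tested, 13 had higher means in novice than in naive (median 0.28), beside 10405 of the 16363 genes with a mean of 1 to 10 FPKM. The mean over silent genes was 4.67 FPKM in novice and 3.70 FPKM in naive, and its part in this count was not tested. Fgf15 averaged 3.54 FPKM in novice libraries, and 2 of the 6 naive libraries listed it at 0. Fgf16 averaged 1.87 FPKM in novice libraries, and likewise 2 naive libraries listed it at 0. Fgf10 averaged 3.26 ± 1.86 FPKM in expert and 5.81 ± 1.82 FPKM in novice (-0.76, SE 0.30). Among VEGF and PDGF ligands, Vegfb stood at 37.5 ± 21.9 FPKM in novice and 60.3 ± 34.2 FPKM in naive (-0.62, SE 0.46), and Pdgfb at 12.3 ± 3.92 FPKM in expert and 8.15 ± 1.53 FPKM in novice (0.50, SE 0.21). Pdgfc averaged 3.63 ± 1.28 FPKM in expert and 2.14 ± 0.56 FPKM in novice (0.53, SE 0.25). The heparin-binding ligand Hbegf stood at 13.1 ± 5.38 FPKM in expert and 8.24 ± 1.19 FPKM in novice (0.55, SE 0.23). Areg had a median of 0.235 FPKM in expert, where 3 of 6 libraries listed it at 0, and of 2.61 FPKM in novice, where 1 did, and Btc averaged 3.52 ± 2.52 FPKM in expert and 5.53 ± 2.55 FPKM in novice (-0.70, SE 0.42).

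Of the IGF axis, Igfbp5 stood at 26.3 ± 7.08 FPKM in expert and 14.9 ± 3.78 FPKM in novice (0.77, SE 0.27), and Igfbp4 at 10.1 ± 7.10 FPKM in expert and 17.4 ± 9.55 FPKM in novice (-0.79, SE 0.37). Igfbp1 averaged 1.48 ± 1.32 FPKM in expert and 3.28 ± 0.94 FPKM in naive (-0.88, SE 0.31). Among further neurotrophic ligands, Cdnf stood at 10.04 ± 7.65 FPKM in expert and 16.2 ± 4.42 FPKM in novice (-0.92, SE 0.45), and Ntf5 at 1.61 ± 1.24 FPKM in expert and 3.62 ± 2.27 FPKM in novice (-0.78, SE 0.41). For Pspn, 6 of 6 naive libraries, 2 novice and 2 expert libraries read 0, and the highest values were 7.24 FPKM in novice and 9.32 FPKM in expert. Among TGF-beta family ligands, Inhba stood at 5.85 ± 1.71 FPKM in novice and 3.76 ± 1.92 FPKM in naive (0.58, SE 0.28), Gdf11 at 10.9 ± 3.71 FPKM in expert and 6.55 ± 2.16 FPKM in novice (0.65, SE 0.34) and Inha at 2.54 ± 1.59 FPKM in expert and 4.06 ± 1.35 FPKM in naive (-0.58, SE 0.30). Group means of Ntf5 and Igfbp1 lay under those of the silent genes, and those of Inha and Inhba were near them. Over the other settings of the fit, expert against novice ran from 0.04 to 0.73 for Gdf11 and from -1.08 to -0.06 for Cdnf. It ran from 0.31 to 0.93 for Igfbp5, from -1.07 to -0.64 for Igfbp4 and from -1.18 to -0.11 for Ntf5. Between expert and naive, higher means were found for 4 of 9 further neurotrophic ligands, 7 of 12 TGF-beta, activin and BMP ligands, 2 of 9 ligands of the EGF family and 3 of 9 genes of the IGF axis. The same held for 43.9% of all tested genes and for 6702 of the 16363 genes with a mean of 1 to 10 FPKM.

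Genes that respond to low oxygen with Vegfa, and proteases that cut growth factor precursors, gave no common direction. Of 12 hypoxia responsive genes 6 had higher means in expert than in naive and 6 lower (median 0.09), while 43.9% of all tested genes had higher ones. Against naive, the mTOR inhibitor Ddit4, listed at 0 in 1 naive library, stood at 1.55 (SE 0.47) in expert, the carbonic anhydrase Car9 at -0.86 (SE 0.31) and the glucose transporter Slc2a1 at 0.55 (SE 0.31). The means of Car9 in both groups lay under those of the silent genes. Among the proteases 7 of 12 had higher means in expert than in naive (median 0.03). The plasminogen activator Plat, which generates the plasmin that cuts pro-Bdnf, stood at 14.1 ± 4.56 FPKM in expert and 8.12 ± 2.13 FPKM in naive (0.71, SE 0.27), and Mmp14 at 14.1 ± 5.59 FPKM in expert and 7.43 ± 1.28 FPKM in novice (0.78, SE 0.24). The sheddase Adam17 stood at 6.42 ± 1.88 FPKM in expert and 4.69 ± 1.76 FPKM in naive (0.39, SE 0.22). None passed after adjustment.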

How the data were processed

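The deposited table holds 1 FPKM value per gene and library, made by the authors with TopHat and Cufflinks on mouse build mm9, per the submitters' processing notes. No unit is named for the deposited values, and FPKM was read from these tools and from the values, which are not whole and have length-dependent steps. The sources used here do not give versions, annotation, options or any further scaling. Per the labels' protocols, total RNA went into SMARTer stranded libraries. The table had 23951 entries. Of these, 27 had names turned into dates and were left out. Depth was described by the value of 1 fragment on 1 kb. For 126 olfactory receptor genes with 1 transcript, 58.1% to 76.4% of low values lay within 0.1 of whole multiples of a step chosen for fit (20% without such a choice).

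The 21745 genes that reached 1 FPKM in 6 or more libraries were fitted as log2(FPKM + 1) with limma 3.58.1 in R 4.3.3 (1 mean per group, eBayes with trend, two-sided, Benjamini-Hochberg over all tested genes), so fold changes understate those of low genes. The fit was tested on simulated data. Single levels were compared by exact permutation over 924 splits (smallest possible p 0.00216). The labels do not say that libraries came from separate mice, so p-values measure the spread between libraries. Replicate numbers are not said to pair mice.

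The factors, lists and tests were chosen with earlier results of these data known. Named list genes are those past the threshold, otherwise the 3 with the smallest F-test p, and the most abundant of each receptor list. For most named list genes the comparison printed is the 1 of 3 with that gene's smallest p. Their fold changes and SEs do not allow for this choice. Nudt6 was named for its overlap with Fgf2. Of these, 1 gene that the rule names is not reported here.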

Additional observations from a re-analysis of the deposited data

Results flagged for a closer look

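In expert 3, Vegfa stood at 129 FPKM, with the next expert library at 61.4 FPKM, a gap of 0.745 of the range of the 6 expert libraries, above Dixon's 95% critical value for 6 samples. Igfbp2 stood at 98.2 FPKM in the same library, with the next at 45.8 FPKM and a gap of 0.705 of the range. Of 30 groups examined (10 factors in 3 groups) 2 were marked in this way, and chance marks about 1 in 20. Expert 3 also had the lowest silent-gene level (0.303 FPKM), the highest astrocyte marker level (8.22) and the most genes at 0 (5479), and the part of these in both values was not tested.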

How the results depend on the processing

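With 12 other settings and with each of the 18 libraries left out in turn, limma called 0 genes and 0 of the 10 factors in each comparison and in the F test. Of the factors, the smallest adjusted p under any setting was 0.107. With the replicate number as a block, 0 genes and 0 factors were called; 10 of 18 same-numbered pairs correlated above 0.1 (-0.36 to 0.46), 3 libraries correlated best with their own number, and the labels do not pair them. The 5 FPKM filter left 6 factors. Quantile normalization moved the median expert to novice log2 fold change of all genes to 0.04, where it was -0.14 as reported.

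Directions turned in these cases, each with an unadjusted p above 0.05, and the cause was not tested. Under quantile normalization, expert against novice was 0.041 for Bdnf and 0.18 for Gdnf, and novice against naive -0.21 for Gdnf. With the silent-gene background as a covariate, expert against naive was 0.11 for Gdnf, -0.18 for Igfbp2, -0.0042 for Mdk and -0.0057 for Nrg1, expert against novice 0.25 for Gdnf, and novice against naive -0.13 for Gdnf. With the astrocyte marker level as a covariate, added after the data were seen, expert against novice was 0.037 for Bdnf, 0.27 for Gdnf, 0.0054 for Btc and -0.064 for Ntrk2, expert against naive -0.043 for Igfbp2, and novice against naive -0.29 for Gdnf, 0.018 for Ptn and 0.062 for Vegfb. With array weights, expert against naive was 0.13 for Gdnf, -0.042 for Igfbp2 and -0.19 for Nudt6. With a pseudocount of 0.1 FPKM, Gdnf was -0.037 for novice against naive.

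With 1 library left out, expert against naive ran from -0.28 to 0.10 for Gdnf, -0.17 to 0.23 for Igfbp2, -0.019 to 0.31 for Mdk and -0.059 to 0.11 for Nrg1. Expert against novice ran from -0.36 to 0.066 for Fgf2 and -0.44 to 0.032 for Gdnf, and novice against naive from -0.071 to 0.30 for Gdnf. The astrocyte marker difference, expert against naive, ran from -0.035 to 0.33 and the endothelial one, novice against naive, from -0.054 to 0.18. The number of factors under an unadjusted 0.05 ran from 0 (without novice 4) to 3 (without expert 3) for novice against naive. It ran from 0 (without expert 3 or expert 6) to 2 for expert against naive, and from 1 (without novice 5, expert 2 or expert 3) to 5 (without novice 1) for expert against novice. Bdnf, Tgfb1, Nrg1 and Gdnf lay near the silent-gene level, which limits what their values can show. The same limit holds for Fgf2 in naive 1, naive 2, naive 5, naive 6 and novice 5, and for several named list genes.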
